A study of Mus musculus with 6 samples.

Results

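Hyaluronan is a long unsulfated sugar chain of the extracellular matrix that fills the spaces between the living cells of the epidermis. It is made at the plasma membrane by the hyaluronan synthases HAS1, HAS2 and HAS3 from UDP-glucuronic acid and UDP-N-acetylglucosamine, and the enzyme UGDH supplies the first of these sugars by oxidising UDP-glucose. HYAL2 at the cell surface and HYAL1 in lysosomes cut the chain, and CD44 is its main receptor on keratinocytes. The 7 genes Cd44, Has1, Has2, Has3, Hyal1, Hyal2 and Ugdh were chosen by name as this pathway, with earlier results of the same contrast known, from the 19935 genes that the arrays measured through probe rows with 1 gene symbol. Of the 7, 6 had such a row, 1 row each. The 2 rows that list Hyal1 list another gene, Naa80, as well, so Hyal1 has no value of its own here.

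The cells were primary keratinocytes of wild type CD1 mice, cultured at low calcium. Of the 6 cultures, 3 received a retrovirus that carried caNFATc1, a human NFATc1 that is constitutively active through mutations of its autoinhibitory domain. The 3 vector control cultures received the empty MSCV vector. NFATc1 is a transcription factor that normally needs dephosphorylation by calcineurin to enter the nucleus, and the comparison addresses which keratinocyte transcripts differ when it is always active. The share of cells infected is not given, and which cells of a culture carried a change cannot be told apart from how much each cell changed.

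Total RNA was read on 6 single-colour arrays, and each value is a log2 signal relative to the median of its row over the 6 arrays. A value of 0 is therefore the middle of that gene's own 6 values, and neither the level of a gene nor whether it was above background can be read from it. For the same reason the keratinocyte markers could not be checked by level. For the row of mouse Nfatc1 the groups were 0.039 ± 0.091 apart (limma SE, 3 arrays each, adjusted p = 0.917). That row was not tested for the human transgene and so does not check the labels. The known NFAT target Rcan1, a calcineurin inhibitor, rose 10.4-fold (limma adjusted p = 0.0113). Cultures numbered 1 stood apart from the others. Xist differed by -6.09 between them and the mean of replicates 2 and 3. Vector control replicate 1 was the highest or lowest array for 44.4% of genes and caNFATc1 replicate 1 for 43.5%, against 25.6% to 29.9% for the other 4 arrays.

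The members Cd44 and Ugdh were higher in caNFATc1 cells, and their upstream sequences are shown first. Each line holds the 250 bases before the annotated start, on the gene's strand, from RefSeq's GRCm38.p6 promoter table, in which 5 of the 7 members were found. Cd44 lies at chr2:102901666-102901915 (minus strand), Ugdh at chr5:65435843-65436092 (minus strand) and Has1, a synthase that did not separate the groups, at chr17:17855189-17855438 (minus strand). Capitals mark GGAAA or its complement TTTCC, the core letters of NFAT sites, and TGACGTCA, the cyclic AMP response element.
Cd44: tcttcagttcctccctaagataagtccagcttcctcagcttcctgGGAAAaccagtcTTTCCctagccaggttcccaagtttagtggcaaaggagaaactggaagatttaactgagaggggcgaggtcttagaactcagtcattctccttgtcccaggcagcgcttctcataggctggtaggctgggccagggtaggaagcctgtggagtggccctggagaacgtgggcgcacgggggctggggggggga
Ugdh: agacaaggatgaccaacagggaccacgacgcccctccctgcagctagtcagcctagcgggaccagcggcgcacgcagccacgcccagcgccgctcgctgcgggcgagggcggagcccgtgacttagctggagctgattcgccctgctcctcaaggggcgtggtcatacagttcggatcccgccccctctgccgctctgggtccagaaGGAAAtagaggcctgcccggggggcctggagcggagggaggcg
Has1: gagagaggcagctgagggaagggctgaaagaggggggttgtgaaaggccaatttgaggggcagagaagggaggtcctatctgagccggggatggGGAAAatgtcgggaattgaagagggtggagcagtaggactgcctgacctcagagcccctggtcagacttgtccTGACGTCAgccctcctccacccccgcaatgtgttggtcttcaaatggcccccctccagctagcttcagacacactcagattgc
The Cd44 window held 2 matches to GGAAA on either strand, beginning 205 and 193 bases before the start. The Ugdh window held 1, beginning 43 bases before the start, the Has1 and Hyal1 windows held 1 each and the Hyal2 window none. At least 1 match was present in 55.6% of the 32851 promoter windows of the table and at least 2 in 21.4%, so the letters are common. The AP-1 motif TGANTCA, found in 6.75% of windows, was in none of the 5. The cyclic AMP response element was in the Has1 window, as in 1.55% of all windows. The Ugdh window was rich in G and C, at 69.2% against a median of 52.4%, and contained the GC box GGGCGG at 2 places (32.7% of windows hold at least 1). A match is a string of letters and does not show binding.

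Cd44, the hyaluronan receptor, had the largest difference of the members. Its values in the vector control arrays were -1.32, -0.61 and -0.57 in replicates 1, 2 and 3, and in the caNFATc1 arrays 0.57, 0.72 and 0.82. Every caNFATc1 array lay above every control array, with a gap of 1.14 between the groups, and control replicate 1 lay well below the other 2 controls. The group means were -0.83 ± 0.42 in control and 0.70 ± 0.13 in caNFATc1 cells (SD, n = 3 per group), a difference of 1.54 ± 0.21 on the log2 scale (limma SE), or 2.90-fold. The same-numbered pairs differed by 1.89, 1.33 and 1.39. Of all genes, 99.7% had a smaller difference.

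Ugdh, which makes the UDP-glucuronic acid that all 3 synthases use, was next. Its control values were -0.71, -0.32 and -0.24 and its caNFATc1 values 0.73, 0.24 and 0.62. The groups did not overlap, and the gap between them was 0.47. The group means were -0.42 ± 0.25 and 0.53 ± 0.26 (SD, n = 3 per group), a difference of 0.95 ± 0.18 (limma SE) or 1.93-fold. The pairs ran wider than those of Cd44, at 1.44, 0.55 and 0.85, and 98.8% of all genes had a smaller difference. UGDH is not specific to hyaluronan, since its product also enters chondroitin and heparan sulfate chains and glucuronides.

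**Figure D1:**
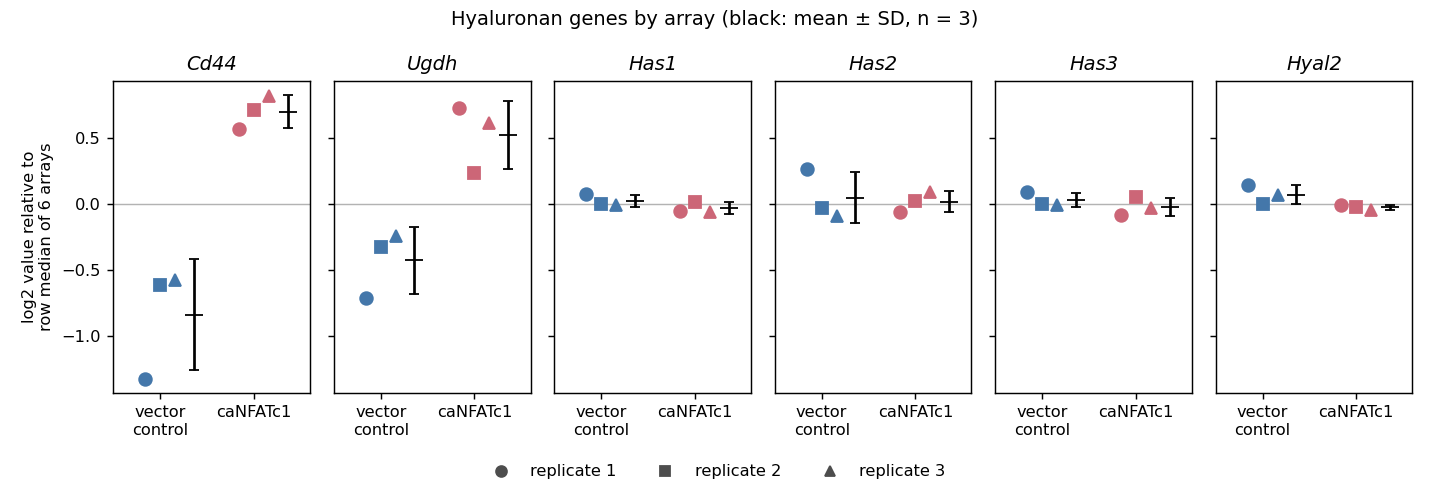
Values of the 6 measured hyaluronan genes, 1 panel each; the y axis is the log2 value relative to the row median of 6 arrays, points are arrays shaped by replicate number, and black bars are the mean ± SD of 3 arrays. Cd44 and Ugdh separate the groups with gaps of 1.14 and 0.47, while the 4 other genes stay between -0.09 and 0.27 on every array.

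The 3 synthases, which extrude the growing chain through the membrane, lay close to 0 on nearly every array. Has2 had control values of 0.27, -0.02 and -0.09 and caNFATc1 values of -0.06, 0.02 and 0.10. The groups overlapped, and the difference was -0.031 ± 0.109 (limma SE). Its pairs went in different directions, at -0.33, 0.05 and 0.19, and without replicate 1 of both groups the difference was 0.12. Has3 had control values of 0.09, 0.0042 and -0.0042 and caNFATc1 values of -0.08, 0.05 and -0.03. Its groups overlapped too, with a difference of -0.050 ± 0.063, which was 0.012 without replicate 1 of both groups. Has1 had control values of 0.08, 0.0034 and -0.0034 and caNFATc1 values of -0.05, 0.02 and -0.06, again with overlap and a difference of -0.057 ± 0.057. Has1 and Has3 had a root mean square difference of 0.023 over the 6 arrays, and Has1 and Hyal2 one of 0.048. Rows that stay near 0 lie close on this measure whether or not they vary together.

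Hyal2, the surface hyaluronidase, was marginally lower in caNFATc1 cells. Its control values were 0.15, 0.0032 and 0.07, and its caNFATc1 values -0.0032, -0.02 and -0.04. The groups did not overlap, though control replicate 2 and caNFATc1 replicate 1 nearly touched. The difference was -0.094 ± 0.059 (limma SE), and 52.7% of all genes had a smaller one. The ranges of Has1, Has3 and Hyal2 over the 6 arrays were 0.14, 0.18 and 0.19, and 12.0%, 18.8% and 21.5% of genes had a smaller range. A small range can belong to a gene that is steady or to one that is not expressed, and these values do not separate the cases.

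Among the 6 members, then, the groups did not overlap for 2 that were higher and 1 that was lower in caNFATc1 cells. Over all genes 9.64% were higher and 9.09% lower without overlap. Limma without a block, at an adjusted p under 0.05 over all genes, called 0 members (2 with unadjusted p below 0.05), while 0.206% of all genes were called higher and 0.01% lower. With the replicate number as a block it called 2 members higher, Cd44 and Ugdh, and 0 lower, against 3.73% and 2.38% of all genes. The members were chosen with this contrast known, so these counts describe them and are no evidence of a change. The median difference of the 6 was -0.041, beside -0.0073 for all genes. Of the 6, 2 were positive and 4 negative, beside 47.4% positive over all genes.

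**Figure D2:**
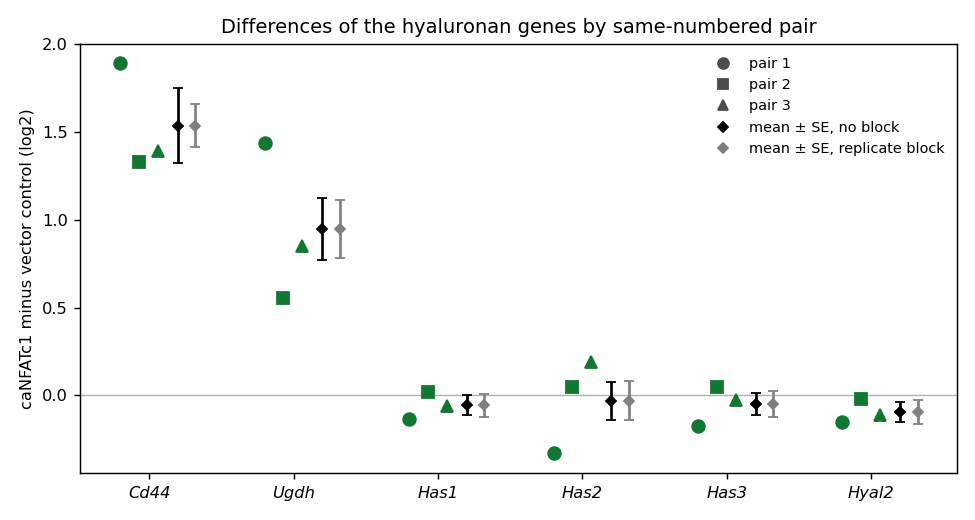
Difference of caNFATc1 minus vector control in log2 units for each measured hyaluronan gene; green symbols are same-numbered pairs, and diamonds are the mean with the limma SE without (black) and with (grey) the replicate block. All 3 pairs of Cd44 lie at or above 1.33 and all 3 of Ugdh at or above 0.55, and pair 1 is the farthest from 0 for every gene.

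Vector control replicate 1 was the lowest array for Cd44 and Ugdh and the highest for Has1, Has2, Has3 and Hyal2. It was thus an extreme array for 6 of 6 members, beside 44.4% of all genes. Array caNFATc1 replicate 1 was extreme for 2 of 6, beside 43.5% of all genes. Pair 1 had the largest difference in size for 6 of 6 members, beside 48% of all genes. Leaving out replicate 1 of both groups lowered the Cd44 difference to 1.36 and that of Ugdh to 0.70, while leaving out replicate 2 gave 1.64 and 1.15. With the block, both genes were among the genes called higher without replicate 1, 2 or 3 of both groups, settings in which 2.55%, 2.57% and 3.03% of all genes were called higher. Both were chosen with this contrast known, so these calls describe them and are no evidence of a change.

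Whether the members vary between replicate numbers was not used to choose them and was tested. An F test over the replicate numbers, with group in the model (limma, adjusted over all genes), called 0 of the 6 members, with 1, Cd44, at an unadjusted p under 0.05. Of all genes 6.71% were called. For Cd44 the mean of the replicate 1 arrays was 0.46 below that of the others (F test adjusted p = 0.175), and for Has2 it was 0.10 above (adjusted p = 0.912). For Ugdh, Has1, Has3 and Hyal2 the corresponding values lay between -0.07 and 0.07.

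The genes most like Cd44 and Ugdh over the 6 arrays were found by the smallest root mean square difference. For Cd44 they were Dusp6, the gene of an ERK phosphatase, at 0.13, the zinc transporter gene Slc39a13 at 0.16, and the thrombospondin gene Thbs3 at 0.20. Dusp6 shared the low value of control replicate 1, at -1.23. For Ugdh they were Rilpl2 at 0.079, Phtf2 at 0.10 and the RNA-editing enzyme gene Adarb1 at 0.11. Each of these 3 was lower in caNFATc1 replicate 2 than in replicates 1 and 3, as Ugdh was. The genes were picked for closeness to Cd44 or Ugdh on these same arrays, so a shared pattern follows from the choice. Cd44 and Ugdh themselves differed by 0.38 on this measure.

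**Figure D3:**
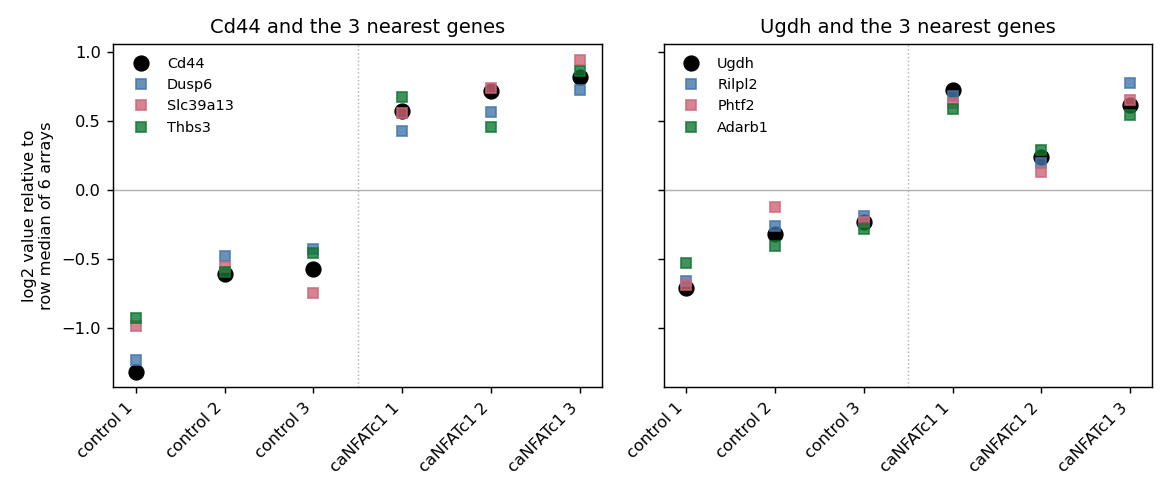
Log2 values relative to the row median on the 6 arrays for Cd44 (left) and Ugdh (right), black circles, with the 3 genes nearest to each as coloured squares. The nearest gene lies at a root mean square difference of 0.13 from Cd44 and 0.079 from Ugdh.

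The rest of the pathway was followed with 7 lists of 97 other genes, of which 91 were measured. Limma without a block called 0 of the 91, with 18 below 0.05 before adjustment. With the replicate block 9 rose and 3 fell, beside 3.73% of all genes called higher and 2.38% called lower in that fit. The lists were chosen with earlier results of these data known, so their counts describe the lists. The share of all genes below 0.05 before adjustment was not counted. Counts before adjustment, here and for the members, therefore cannot be weighed against it. The adjusted p-values below come from the fit with the block unless said otherwise. The median difference of the 91 was 0.022.

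Of the genes that feed UGDH, Pgm1 and Ugp2 rose with the block. PGM1 turns glucose 6-phosphate into glucose 1-phosphate, and UGP2 joins this to UTP to give UDP-glucose, the substrate of UGDH. Ugp2 had values of -0.46, -0.15 and -0.20 in control arrays and 0.15, 0.28 and 0.39 in caNFATc1 arrays, without overlap. It rose by 0.55 ± 0.07 with the replicate block (limma adjusted p = 0.0177, and 0.118 without the block), by 0.62, 0.44 and 0.59 in the pairs. Pgm1 had control values of -0.59, -0.07 and 0.01 and caNFATc1 values of -0.01, 0.40 and 0.69. Its groups overlapped, but within the pairs it was higher by 0.57, 0.48 and 0.67, and it rose with the block (0.58 ± 0.07, limma adjusted p = 0.0161, 0.382 without). Uap1l1, a relative of the enzyme that completes UDP-N-acetylglucosamine, rose by 0.34 ± 0.07 (0.0432 with the block, 0.671 without), a call that was lost whichever replicate number was left out. On the hexosamine side no other gene passed: Gfpt1 and Gfpt2, whose enzymes open that route, differed by 0.11 and -0.05, and Gnpnat1, Pgm3 and Uap1 by -0.07, 0.09 and -0.02. The hexokinase gene Hk2 differed by -0.38 and did not pass. Of the 12 measured genes of UDP-sugar supply 6 were positive and 6 negative, with a median of 0.034, 3 rose and 0 fell.

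Other genes of hyaluronan breakdown gave 0 calls among 10 measured, with 3 at an unadjusted p under 0.05 in the limma fit with the block. Hyal3 and the lysosomal gene Naglu differed by 0.30 and 0.25 without overlap between groups. The cell surface hyaluronidase gene Cemip2 differed by 0.25. Cemip, which encodes a protein that binds and breaks down hyaluronan, differed by -0.21, -0.38 and -0.54 in the pairs (mean -0.38 ± 0.08, limma adjusted p = 0.0638 with the block).

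Among 9 other genes of hyaluronan receptors and binding proteins, 2 fell with the block and 0 rose. Hmmr, the gene of the receptor RHAMM, which also acts at the mitotic spindle, had control values of -0.06, 0.63 and 0.39 and caNFATc1 values of -0.76, -0.41 and 0.06. The groups overlapped, and it fell by 0.69 ± 0.14 with the block (limma adjusted p = 0.046, 0.344 without), a call that was kept when replicate 3 was left out and lost when 1 or 2 was. Beside it, 13 of 13 measured genes of cell division were negative, against 47.4% positive over all genes. The median of the 13 was -0.70, and 7 of the 13 fell with the block. Their mean value ran from 0.11 to 0.38 in control arrays and from -0.73 to -0.09 in caNFATc1 arrays, and its part in the Hmmr result was not tested. Stab1, the gene of the scavenger receptor stabilin-1, fell by 0.61 ± 0.08 (limma adjusted p = 0.0177, 0.493 without the block), by 0.51, 0.55 and 0.77 in the pairs, although the groups overlapped. Stab1 is known from macrophages and endothelium. Of 9 leukocyte and 8 endothelial markers limma called 0 with or without the block, with 0 at an unadjusted p under 0.05. Tlr4 and Tlr2, toll-like receptors that bind hyaluronan fragments, differed by 0.64 and -0.10 and did not pass. The Tlr4 value rested largely on caNFATc1 replicate 1, at 1.44, without which the difference was 0.19. Leaving out that array alone leaves vector control replicate 1 unmatched, and the same-numbered pairs of Tlr4 differed by 1.34, 0.15 and 0.43.

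Of 16 genes of hyaluronan-binding matrix proteins limma with the block called 0, with 2 at an unadjusted p under 0.05. The largest difference was that of Acan, which encodes the proteoglycan aggrecan. Its control values were -0.27, -0.06 and -0.20 and its caNFATc1 values 0.06, 1.25 and 1.24, without overlap (1.03 ± 0.22, limma adjusted p = 0.0535 with the block, 0.276 without). Array caNFATc1 replicate 1 stayed low, and without replicate 1 of both groups Acan differed by 1.38 (adjusted p = 0.00874 with the block and 0.0325 without). Without replicate 2 or 3 of both groups it differed by 0.89 and 0.82 and did not pass (adjusted p = 0.136 and 0.0647 with the block, 0.741 and 0.743 without). Vcan, the versican gene, differed by 0.65 ± 0.22 (0.157), with control replicate 1 at -2.15 far below the rest. Array caNFATc1 replicate 1 was low too, at -0.81. Without vector control replicate 1 alone the Vcan difference was -0.06, which leaves caNFATc1 replicate 1 unmatched. The same-numbered pairs of Vcan differed by 1.34, 0.46 and 0.16. The link protein genes Hapln1 and Hapln2 differed by -0.11 and -0.07. The other 12 genes differed by between -0.07 and 0.05.

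Among 15 measured partners, ligands and sheddases of CD44, 2 rose with the block and 0 fell. Ank3, whose product ankyrin-G is of the family that ties the CD44 tail to the spectrin skeleton, had control values of -0.04, -0.67 and -0.50 and caNFATc1 values of 0.90, 0.04 and 0.14. It rose by 0.77 ± 0.08 (limma adjusted p = 0.0117, 0.324 without the block), and the groups did not overlap. Tiam1, an exchange factor for RAC1, rose by 0.44 ± 0.07 (0.0293, and 0.0901 without the block), a call kept without replicate 1 and lost without replicate 2 or 3. The genes of the ezrin family, which link CD44 to actin, did not pass: Msn differed by 0.40 (0.075) without overlap, Ezr by -0.18 and Rdx by -0.10. The receptor kinase gene Met differed by 0.21, and the sheddase genes Mmp14, Adam10 and Adam17 by 0.38, -0.10 and 0.14.

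UGDH product also builds the sulfated chains, and of 22 measured genes of their synthesis 4 rose and 1 fell with the block. Of the 22, 17 were positive, beside 47.4% of all genes, and the median was 0.15. Ext1 and Ext2, whose products polymerise heparan sulfate, rose by 0.82 ± 0.08 and 0.39 ± 0.07 (limma adjusted p = 0.0102 and 0.0418, 0.189 and 0.161 without the block). Ext1 had control values of -0.11, -0.81 and -0.71 and caNFATc1 values of 0.52, 0.11 and 0.20, without overlap. The xylosyltransferase genes Xylt1 and Xylt2, which start the chains on core proteins, rose by 0.80 ± 0.12 and 0.40 ± 0.08 (0.0278 and 0.044, 0.118 and 0.345 without the block). Xylt1 did not overlap between groups and Xylt2 did. The chondroitin synthase gene Chsy1 fell by 0.33 ± 0.07 (0.0457, 0.512 without the block), while Csgalnact2 differed by 0.28 (0.111). Leaving out each replicate number in turn, with the block, the calls of Ext1 and Xylt1 were kept each time, as were those of Pgm1, Ugp2, Stab1 and Ank3. The calls of Ext2 and Chsy1 were lost each time, and that of Xylt2 was kept when replicate 1 was left out and lost when 2 or 3 was.

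**Figure D4:**
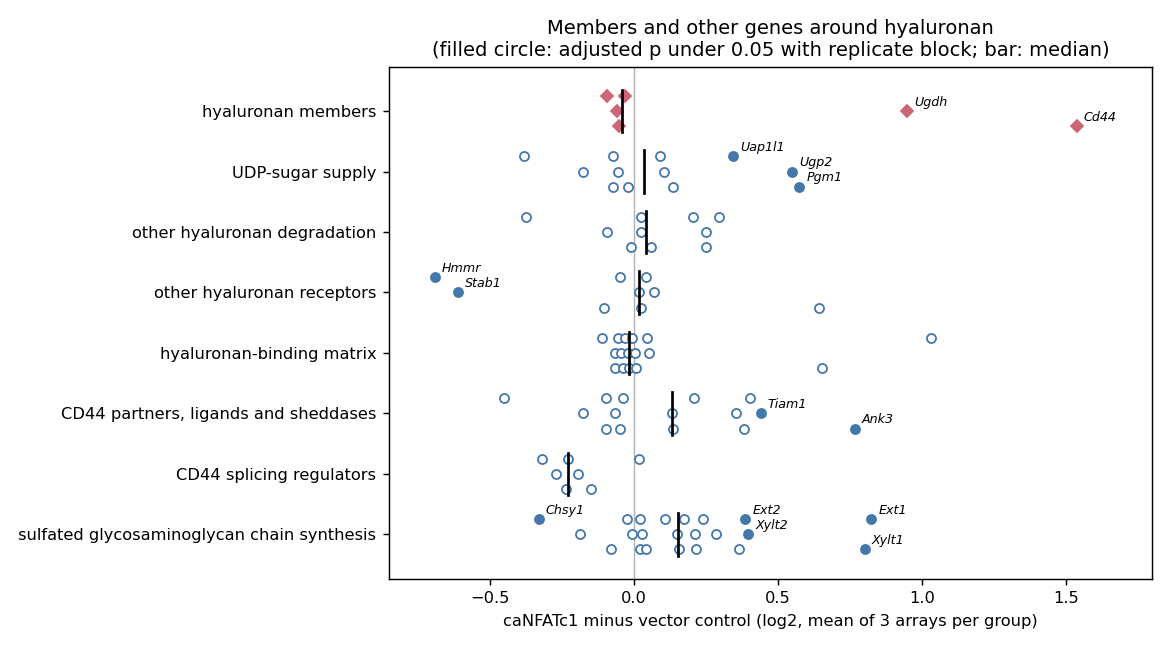
Difference of caNFATc1 minus vector control in log2 units for the 6 measured members (diamonds) and 91 other genes in 7 lists (circles, filled where limma with the replicate block gave an adjusted p under 0.05), with black bars at list medians. Cd44 at 1.54 and Ugdh at 0.95 lie to the right of their list median of -0.041, and 9 filled circles lie above 0 and 3 below.

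CD44 and the synthases are also made by fibroblasts, and CD44 marks the basal layer of the epidermis. Of 11 fibroblast markers 2 rose with the block, Col3a1 by 1.20 and Col6a1 by 0.73 (limma adjusted p = 0.0296 and 0.0207). Of the 11, 8 were positive, beside 47.4% of all genes, and the median was 0.21. Pdgfra differed by 0.83 without overlap between groups, Col1a1 by 0.48, Pdgfrb by 0.26, Vim by 0.21, Dcn by 0.08 and Col1a2 by 0.05, while Lum, Thy1 and Fap differed by -0.01, -0.14 and -0.01. None of these 9 passed. Vim was at -2.98 in vector control replicate 1 and -2.92 in caNFATc1 replicate 1, against -0.03 to 0.79 on the other arrays. It differed between replicate numbers (limma F test, adjusted p = 0.00115). The mean of the list, which includes Vim, ran from -0.30 to -0.09 in control arrays and from -0.13 to 0.55 in caNFATc1 arrays. Of 10 basal keratinocyte markers Trp63 rose by 0.42 (0.0444), and their mean overlapped between groups, from -0.12 to 0.05 and from -0.20 to -0.04. Of 9 suprabasal markers 4 fell with the block (Ivl, Tgm1, Grhl3 and Zfp750), and their mean ran from 0.01 to 0.43 and from -0.47 to 0.06. The part of these cells in the differences of the members was not tested. Of 8 melanocyte markers 0 were called by limma in either fit, with 0 at an unadjusted p under 0.05.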

How the data were processed

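RNA of 6 cultures was measured on single-colour arrays. The deposited log2 values fill 28815 rows, and the submitters' processing notes name RMA and the build mm8. Software and filters were not given in the sources used here. Every row had a median of 0 over the 6 arrays (largest departure 5e-07), so brightness is lost and dim rows could not be filtered. Base 2 was taken from the use of RMA.

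In the platform annotation 21780 rows had 1 symbol, 1605 several and 5430 were not listed. Rows of a gene were averaged, giving 19935 genes. Groups were compared with limma 3.58.1 (R 4.3.3, lmFit and eBayes, 2-sided, Benjamini-Hochberg adjusted p under 0.05 over all genes), with group as the only term or with the replicate number as a block. The code was tested on simulated data. Across genes, the deviations from group means correlated at 0.57 to 0.71 between arrays of one number and at -0.60 to 0.18 otherwise, so equal numbers were treated as pairs. The labels do not say that a number marks a shared culture, and the p-values cover only the spread between these arrays.

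The members and lists were chosen with earlier results of these data known. Named are all members, up to 4 genes of each list with the lowest p, genes past the test in either fit, and the 3 genes nearest to each member that differed by at least 0.5. Gfpt1, Gfpt2, Gnpnat1, Pgm3, Uap1, Ezr, Rdx, Mmp14, Adam10, Adam17, Esrp1, Esrp2, Khdrbs1 and the marker genes were named after their values were seen. Alternatives were other array scalings, robust moderation, another row per gene and leaving out arrays or replicate numbers.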

Additional observations from a re-analysis of the deposited data

How the results depend on the processing

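The difference of Cd44 lay between 1.29 and 1.67 and that of Ugdh between 0.70 and 1.15 over the 12 alternatives run for each (array medians subtracted, quantile normalisation, the row with the highest mean, and leaving out each array or each replicate number), with no change of sign. Has1 and Hyal2 kept a negative sign in all 12, while Has2 was positive in 3, ranging from -0.14 to 0.12, and Has3 in 1, ranging from -0.10 to 0.012. Limma called 0 of 91 other pathway genes without a block, and 0 with either scaling, robust moderation or the other row rule. Leaving out single arrays or a replicate number without a block gave 0 to 1 calls, the 1 being Acan without caNFATc1 replicate 1 or without replicate 1 of both groups. With the replicate block 12 were called, beside 6.11% of all genes, and with the block and without replicate 1, 2 or 3 of both groups 11, 6 and 8, beside 3.57%, 3.73% and 5.45%. Of the 12 genes, 8, 6 and 7 were still called in these settings and 6 in all 3. The F test over replicate numbers called 0 members in each of its 7 alternatives. With 3 arrays a group and values relative to row medians, the array number limits precision, and signal over background is unknown.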

Other observations

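CD44 is spliced into many forms, and genes of proteins that regulate this splicing did not pass the test. Of 7 measured, 6 differed negatively with a median of -0.23, beside 47.4% positive over all genes. Limma called 0 with or without the replicate block, with 4 at an unadjusted p under 0.05 with it and 2 without. Tra2b and Srsf1 differed by -0.27 ± 0.07 and -0.32 ± 0.11 (SE with the block, limma adjusted p = 0.0853 and 0.157), and Hnrnpm and Hnrnpl by -0.15 and -0.19, each without overlap between groups. Over all genes 9.09% were lower without overlap. The epithelial splicing factor genes Esrp1 and Esrp2 differed by 0.02 and -0.23, and Khdrbs1 by -0.24. The arrays gave 1 row for Cd44, so its forms were not told apart.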
